A study of Populus trichocarpa with 24 samples.

Results

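Cellulose synthase (CesA) loci of the primary cell wall were followed in black cottonwood (Populus trichocarpa), namely 2 loci listed as CesA1 type (Potri.018G029400 and Potri.006G251900) and 4 listed as CesA3 type (Potri.009G060800, Potri.001G266400, Potri.006G052600 and Potri.016G054900). They are 6 of the 41335 loci in the count table and were chosen by identifier, not by a measured value, though with earlier results of these data known. The types come from published poplar nomenclature as recalled, and the sources used here do not pair the identifiers with names, so a type may be wrongly assigned. RNA was sequenced from 8 groups of 3 libraries each. Laser microdissection of trees kept for 6 months in a greenhouse gave fiber cells (the fiber capture), vessel cells (the vessel capture), and a blend of fiber, vessel and ray cells (the three-cell mix). The 5 tissues were developing secondary xylem scraped from debarked stems, young leaves that had fully expanded, phloem scraped from the inner bark, primary roots of young seedlings kept in water, and the shoot tip, from the uppermost internodes. The labels give 6 months as the age of the root samples too, and name no genotype, treatment or transgene for any group. Only the RNA of the captures was amplified, so amplification cannot be told apart from a difference between captures and tissues. Nothing in the labels says that the libraries of a group came from separate trees, and p-values then measure the spread between these libraries, which may be technical.

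Cellulose is made at the plasma membrane by complexes of several CesA subunits. In Arabidopsis the complex of the primary wall, laid down while cells grow, needs a CESA1 type, a CESA3 type and a CESA6 type subunit. A complex of CESA4, CESA7 and CESA8 makes the cellulose of the thick secondary wall of fibers and vessels. CESA1 and CESA3 of Arabidopsis are each needed for normal primary walls, and poplar carries duplicated copies of most of these genes. Developing xylem holds both dividing or expanding cells with primary walls and cells that are depositing secondary wall.

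Tissue libraries held between 5689642 counts, in root replicate 1, and 30917688, in leaf replicate 2, and capture libraries between 8317935 and 18040299. The labels do not say how reads shared by similar copies were counted, and the split of counts between near-identical copies is therefore uncertain. Levels are given as CPM, the counts of a locus per 1000000 of a library total scaled by the trimmed mean of M values (TMM), and they are comparable between samples of a locus but not between loci, whose lengths were not used here. Scaling factors were 0.640 to 0.732 in leaf, 1.30 to 1.39 in root and 0.704 in phloem replicate 3, where 20 loci took 35.6% of the counts. The list of 5 secondary wall CesA loci, used as the marker of wood-forming cells, summed to 8765 ± 1765 CPM in fiber captures, 1356 ± 422 CPM in vessel captures, 2454 ± 205 CPM in mix captures and 9128 ± 1666 CPM in xylem tissue (SD, n = 3 each). It summed to between 125 CPM in leaf and 271 CPM in phloem over the other tissues. In such bulk samples, fewer cells of a type and less RNA per cell cannot be told apart.

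Groups were compared with edgeR's quasi-likelihood test, and a call asked for a p below 0.05 after Benjamini-Hochberg adjustment over all loci tested and for a log2 fold of 1 or more in size. All 6 loci passed the filter on low counts in each of the 16 comparisons. Comparisons that name the same group share its libraries and are not independent. Across the 10 pairs of tissues the 6 loci gave 18 calls among 60 folds, 8 higher and 10 lower in the group named first, and Potri.006G052600 gave 7 of the 18. The 3 comparisons among captures gave no call, and the 3 comparisons of a capture with xylem tissue gave 10 calls among 18 folds, all lower in the capture. Against the shoot tip, 0 loci were called higher and 2 lower in xylem tissue (45.8% of all loci tested were called), 1 higher and 2 lower in leaf (29.8%), 0 higher and 1 lower in phloem (31.1%), and 1 higher and 2 lower in root (52%). Xylem tissue had 1 locus higher and 1 lower than leaf (49.6% of all loci called), 1 higher and 0 lower than phloem (36%), and 1 higher and 1 lower than root (48.6%). Leaf had 2 higher and 1 lower than phloem (45.2%) and none in either direction against root (51.3%), and phloem had 1 higher and 0 lower than root (51.4%). With TMM scaling the share of the 6 loci that was called was above that of all loci for leaf against shoot tip and leaf against phloem. It was below that share in the 8 other tissue pairs. For leaf against phloem and root against shoot tip, with 3 of the 6 loci called, it was close to the share of all loci. With library totals, given next, the order of these shares changed in some pairs. A set of 6 loci is too small to read a difference from such shares. With unscaled library totals the higher and lower calls were 1 and 0 for xylem tissue against leaf, 0 and 2 for leaf against shoot tip, 0 and 2 for phloem against shoot tip, and 2 and 1 for root against shoot tip. They were 0 and 2 for leaf against phloem, 0 and 3 for leaf against root, and 1 and 3 for phloem against root, and as given above in the other 3 tissue pairs. Of all 31308 loci tested, library totals called 17588 for xylem tissue against leaf and 11395 for leaf against shoot tip. Against shoot tip the number was 9582 for phloem and 16696 for root. It was 15848 for leaf against phloem, 19680 for leaf against root and 16388 for phloem against root. The median log2 folds of all loci in these last 3 pairs were -0.405, -0.947 and -0.476 in that order.

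With TMM scaling the median log2 fold of the 6 loci stayed within 0.64 of 0 in every tissue comparison. It was 0.28 for xylem tissue against shoot tip (all loci tested, -0.09), -0.08 against leaf (all loci, -0.06), 0.26 against phloem (all loci, 0) and -0.39 against root (all loci, -0.05). It was lowest for phloem against root, at -0.64 (all loci, -0.02), and was -0.41 for phloem against shoot tip (all loci, -0.01). For leaf it was 0.15 against shoot tip (all loci, 0.08), 0.35 against phloem (all loci, 0.06) and -0.09 against root (all loci, 0.006), and for root against shoot tip it was 0.24 (all loci, 0.03). The single loci behind these medians moved in different directions, as the map of log2 folds shows.

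**Figure D1:**
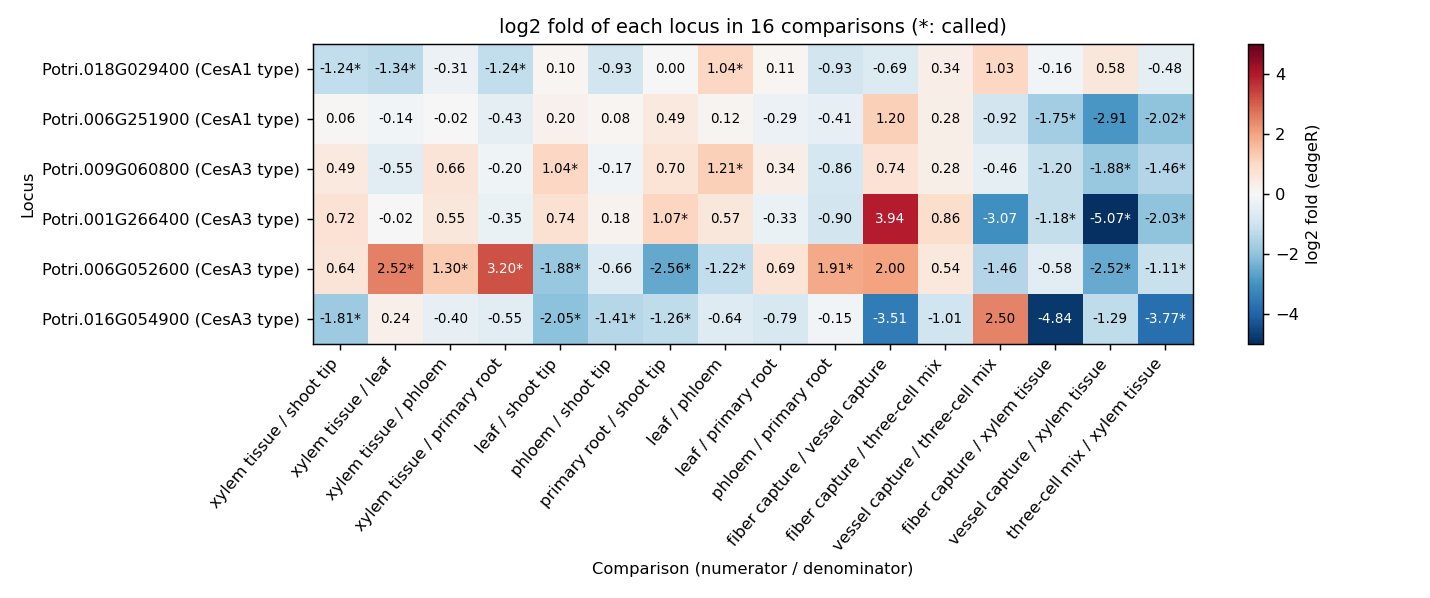
Log2 fold of the 6 loci (rows) in the 16 comparisons (columns, group named first over group named second), from edgeR's quasi-likelihood fit, with an asterisk where the locus was called. Potri.006G052600 had the highest fold among tissues (3.20, xylem tissue over root), and the called folds in the last 3 columns, each capture over xylem tissue, were all below 0.

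The first CesA1 type locus, Potri.018G029400, was lower in xylem tissue than in leaf, root and shoot tip and overlapped phloem. It had 83.0, 62.1 and 96.1 CPM in xylem tissue, 188, 179.8 and 245 CPM in leaf, 97.0, 77.5 and 124 CPM in phloem, 156, 162 and 247 CPM in root, and 178, 176 and 218 CPM in shoot tip. Every xylem and phloem library was below every library of leaf, root and shoot tip, while leaf, shoot tip and root overlapped each other and so did phloem and xylem. With unscaled library totals root had the highest mean (252.5 CPM), and leaf (141 CPM) lay below shoot tip (200 CPM) without overlap. The means were 80.4 ± 17.1 CPM in xylem tissue, 204 ± 35.5 CPM in leaf, 99.4 ± 23.1 CPM in phloem, 189 ± 50.9 CPM in root and 190.5 ± 23.5 CPM in shoot tip (SD, n = 3 each). By edgeR's quasi-likelihood test the log2 fold of xylem tissue was -1.34 ± 0.24 (SE) against leaf (adjusted p 0.00021), -1.24 ± 0.24 against root (adjusted p 0.00046) and -1.24 ± 0.24 against shoot tip (adjusted p 0.000493). Leaf was higher than phloem by a log2 fold of 1.04 ± 0.24 (adjusted p 0.0019, edgeR). Phloem had log2 folds of -0.93 against both root (adjusted p 0.00354, edgeR) and shoot tip (adjusted p 0.00597), which passed on p but not on size. Both were called with unscaled library totals and without phloem replicate 3, and that against root also without root replicate 1 or 2. The call of xylem tissue against shoot tip held in all 13 alternatives. That of xylem tissue against leaf ended with unscaled library totals and that against root without root replicate 3. The call of leaf against phloem ended with library totals or without leaf replicate 3 or phloem replicate 2.

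The second CesA1 type locus, Potri.006G251900, varied least of the 6 among tissues and gave no call there with TMM scaling. It had 155, 133 and 123 CPM in xylem tissue, 169, 148 and 139 CPM in leaf, 125, 164 and 129 CPM in phloem, 171, 176 and 206 CPM in root, and 154, 131 and 112 CPM in shoot tip. The root libraries lay above all 12 other tissue libraries, and the other 4 tissues overlapped. The highest tissue mean, 184 ± 18.6 CPM in root, was 1.39 times the lowest, 132 ± 21.0 CPM in shoot tip (SD, n = 3 each). That log2 range of means of 0.48 compares with a median of 1.92 over the 28514 loci that averaged at least 1 CPM in tissues, and 2.54% of those loci had a smaller one. Its largest fold, root over shoot tip, was 0.49 ± 0.17 (SE) on the log2 scale (adjusted p 0.0229, edgeR's quasi-likelihood test). With unscaled library totals the span of tissue means was 2.39 times, with leaf as the lowest tissue and 20.4% of loci below it in log2 range, and leaf was called lower than root (log2 fold -1.26). The share of the summed CesA1 type CPM that came from Potri.018G029400, the other copy, was 36.8% ± 6.25 in xylem tissue, 57.1% ± 5.82 in leaf, 41.6% ± 8.60 in phloem, 50.1% ± 3.91 in root and 59.0% ± 6.37 in shoot tip. Between the highest and the lowest tissue mean, Potri.018G029400 spanned 2.54 times and Potri.006G251900 the 1.39 times given above.

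**Figure D2:**
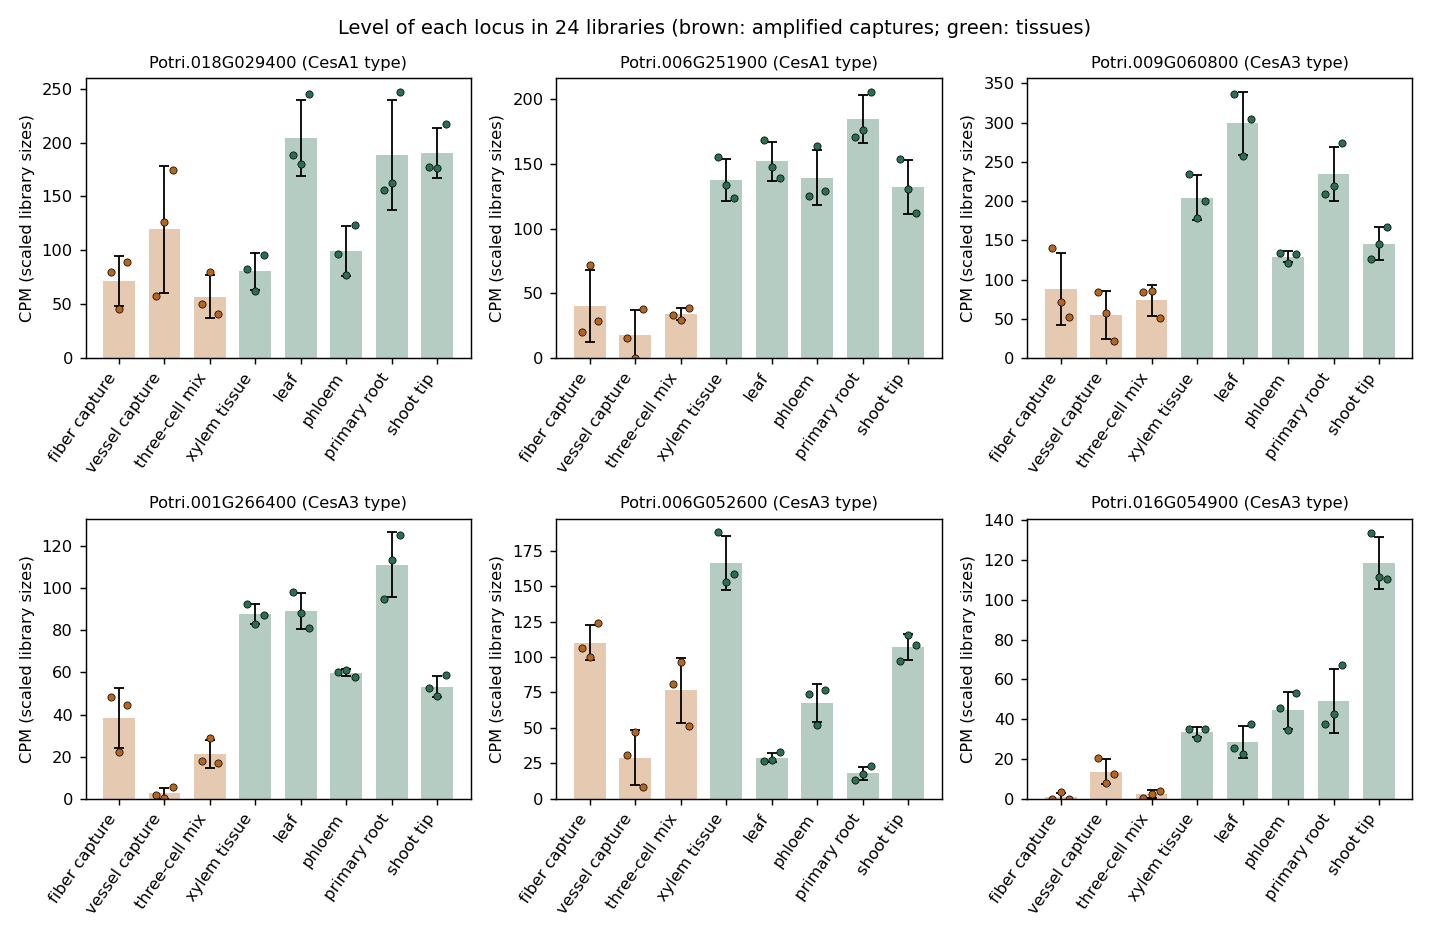
Level of each of the 6 loci in 8 groups, in CPM of TMM-scaled library sizes, with points for the 3 libraries, bars for their mean and error bars for their SD. Potri.006G052600 is highest in xylem tissue (153 to 188 CPM) and Potri.016G054900 in shoot tip (111 to 134 CPM), and the vertical scale differs between panels.

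Potri.009G060800, listed as CesA3 type, was highest in leaf with TMM scaling and in root with unscaled library totals. It had 234, 178 and 201 CPM in xylem tissue, 337, 257 and 304 CPM in leaf, 134, 121 and 133 CPM in phloem, 209, 219.8 and 274 CPM in root, and 126, 145 and 167 CPM in shoot tip. Leaf overlapped root only, root overlapped xylem tissue, and phloem and shoot tip overlapped each other below all other tissues. The mean was 299 ± 40.1 CPM in leaf, against 129 ± 7.40 CPM in phloem and 146 ± 20.5 CPM in shoot tip (SD, n = 3 each). In edgeR's quasi-likelihood test leaf was higher than phloem by a log2 fold of 1.21 ± 0.18 (SE, adjusted p 5.23e-05) and higher than shoot tip by 1.04 ± 0.18 (adjusted p 0.000386). Both calls ended with unscaled library totals, where the folds were 0.71 and 0.42. On that scale the means were 209 CPM in xylem tissue, 205 CPM in leaf and 314.5 CPM in root, root overlapped no neighbour, and the fold of leaf over root was -0.62 instead of 0.34, with no call either way. The call against shoot tip also ended without leaf replicate 1 or shoot tip replicate 1, and in the fits of all 24 libraries or of only the 6 compared.

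Potri.001G266400, also listed as CesA3 type, resembled Potri.009G060800 in its low levels in phloem and shoot tip. Its mean was highest in root, which overlapped leaf with TMM scaling. It had 92.5, 83.1 and 87.2 CPM in xylem tissue, 97.9, 88.4 and 81.0 CPM in leaf, 60.4, 61.3 and 57.9 CPM in phloem, 94.9, 114 and 125 CPM in root, and 52.5, 48.8 and 58.6 CPM in shoot tip. All libraries of xylem tissue, leaf and root were above all libraries of phloem and shoot tip. Root was higher than shoot tip, at 111 ± 15.2 CPM in root against 53.3 ± 4.97 CPM in shoot tip (SD, n = 3 each), a log2 fold of 1.07 ± 0.14 (SE) with an adjusted p of 1.71e-05 in edgeR's quasi-likelihood test. That call ended without root replicate 3 and in the fit of all 24 libraries. Other folds passed on p but were under the size asked for, among them 0.72 ± 0.14 for xylem tissue against shoot tip (adjusted p 0.000552, edgeR), 0.75 ± 0.14 for leaf against shoot tip (adjusted p 0.000822) and -0.90 ± 0.14 for phloem against root (adjusted p 8.37e-05). Leaf against root had a log2 fold of -0.33 (adjusted p 0.0546, edgeR). With unscaled library totals the fold of leaf against shoot tip was 0.12 (adjusted p 0.672, edgeR), and leaf overlapped phloem (59.3 to 62.7 CPM in leaf, 40.7 to 68.0 CPM in phloem). On that scale leaf and phloem were each called lower than root.

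The largest differences among tissues were those of Potri.006G052600, a CesA3 type locus that was highest in xylem tissue. It had 188, 153 and 159 CPM in xylem tissue, 26.9, 27.5 and 32.9 CPM in leaf, 73.8, 52.4 and 76.7 CPM in phloem, 13.3, 17.5 and 23.0 CPM in root, and 97.5, 116 and 108 CPM in shoot tip. The order of means was xylem tissue, shoot tip, phloem, leaf and root, and no library of a tissue overlapped those of its neighbour in that order, although leaf and root overlapped with unscaled library totals. The mean of 166 ± 18.9 CPM in xylem tissue was 9.30 times the 17.9 ± 4.87 CPM in root (SD, n = 3 each), and 74.6% of the 28514 loci had a smaller log2 range of tissue means. By edgeR's quasi-likelihood test xylem tissue was higher than leaf by a log2 fold of 2.52 ± 0.21 (SE, adjusted p 1.17e-07), than phloem by 1.30 ± 0.20 (adjusted p 0.00012) and than root by 3.20 ± 0.22 (adjusted p 3.3e-08). Against shoot tip it stood 0.64 ± 0.20 higher (adjusted p 0.013, edgeR), under the size for a call. Leaf was lower than shoot tip by a log2 fold of -1.88 ± 0.21 (adjusted p 7.8e-06, edgeR) and lower than phloem by -1.22 ± 0.21 (adjusted p 0.000143). Root was lower than shoot tip by -2.56 ± 0.21 (adjusted p 2.26e-07, edgeR), and phloem was higher than root by 1.91 ± 0.21 (adjusted p 3.24e-06). These 7 calls held in every alternative and without any 1 library. The remaining fold, leaf over root, was 0.69 ± 0.21 (adjusted p 0.00945, edgeR), was not called, and was -0.26 with unscaled library totals.

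Potri.016G054900, the last CesA3 type locus, was highest in shoot tip. It had 35.1, 30.7 and 35.3 CPM in xylem tissue, 25.5, 22.6 and 37.7 CPM in leaf, 45.7, 34.5 and 53.1 CPM in phloem, 37.4, 42.4 and 67.3 CPM in root, and 134, 112 and 111 CPM in shoot tip. Every shoot tip library lay above all 12 other tissue libraries, and with TMM scaling the neighbours in the order root, phloem, xylem tissue and leaf overlapped. With unscaled library totals no neighbours overlapped, at means of 65.6, 42.0, 34.6 and 19.8 CPM in that order. The log2 fold of leaf was -0.79 against root (adjusted p 0.0108, edgeR) and -0.64 against phloem (adjusted p 0.036), too small for a call. Both were called with library totals, and that against root also without leaf replicate 3 or root replicate 1. The shoot tip mean of 119 ± 13.1 CPM was 4.15 times that of leaf, 28.6 ± 8.02 CPM (SD, n = 3 each). Against shoot tip the log2 fold was -1.81 ± 0.25 (SE) in xylem tissue (adjusted p 2.18e-05, edgeR's quasi-likelihood test), -2.05 ± 0.25 in leaf (adjusted p 1.77e-05), -1.41 ± 0.24 in phloem (adjusted p 0.000321) and -1.26 ± 0.24 in root (adjusted p 0.000403). All 4 calls held without any 1 library. They ended in the fit of all 24 libraries with adjusted p of 0.126, 0.134, 0.342 and 0.26, and the call of root also ended with unscaled library totals, where its fold was -0.93.

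The make-up of the CesA3 type sum therefore differed between tissues, whatever the scaling, since a share within a library does not depend on it. Potri.006G052600 gave 33.8% ± 0.777 of the summed CPM in xylem tissue, 6.57% ± 0.915 in leaf, 22.3% ± 2.45 in phloem, 4.29% ± 0.499 in root and 25.2% ± 1.98 in shoot tip (SD, n = 3 each). Potri.016G054900 gave 6.88% ± 0.473 in xylem tissue, 6.41% ± 1.64 in leaf, 14.7% ± 1.86 in phloem, 11.7% ± 1.80 in root and 28.0% ± 4.11 in shoot tip. Potri.009G060800 gave 41.4% ± 1.29 in xylem tissue, 66.9% ± 2.10 in leaf, 43.0% ± 1.72 in phloem, 56.9% ± 1.76 in root and 34.2% ± 3.41 in shoot tip. The share of Potri.006G052600 was highest in xylem tissue, that of Potri.016G054900 in shoot tip and that of Potri.009G060800 in leaf, each with no overlap with another tissue. Shares were compared between samples and not between loci, because a longer transcript gives more counts.

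**Figure D3:**
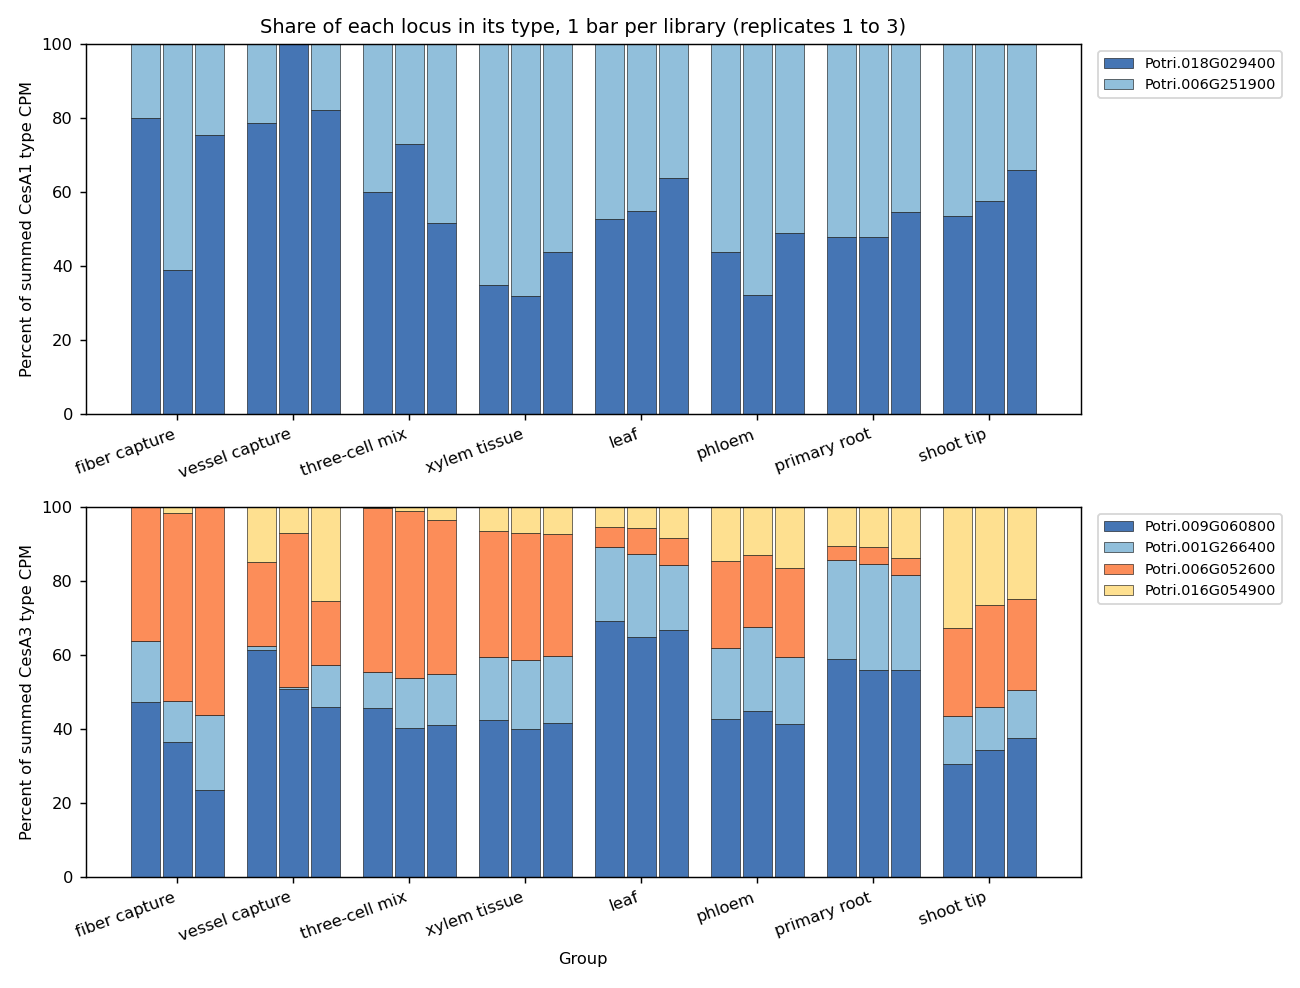
Percent of the summed CPM of the CesA1 type loci (upper panel) and of the CesA3 type loci (lower panel) that came from each locus, with 1 bar for each library. In leaf and root the 2 upper parts of the lower panel, Potri.006G052600 and Potri.016G054900, are thin, and in the fiber capture and the mix Potri.016G054900 is nearly absent.

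Summed over copies, the CesA1 type loci were lowest in xylem tissue and the CesA3 type loci were not. The CesA1 type sum was 218 ± 21.3 CPM in xylem tissue, 356 ± 28.5 CPM in leaf, 239 ± 15.4 CPM in phloem, 373 ± 69.4 CPM in root and 323 ± 13.8 CPM in shoot tip (SD, n = 3 each). The CesA3 type sum was 492 ± 53.5 CPM in xylem tissue, 446 ± 46.4 CPM in leaf, 301 ± 28.2 CPM in phloem, 412 ± 69.1 CPM in root and 425 ± 17.7 CPM in shoot tip. Xylem tissue and phloem overlapped in the CesA1 type sum, below the 3 other tissues, and phloem lay below the 4 other tissues in the CesA3 type sum. With unscaled library totals leaf overlapped phloem in both sums, at 245 CPM in leaf and 230 CPM in phloem for the CesA1 type and 306 CPM in leaf and 290 CPM in phloem for the CesA3 type, and the highest CesA3 type sum was that of root (554 CPM), which overlapped xylem tissue (504.5 CPM). The ratio of the CesA3 type to the CesA1 type counts, which is free of the scaling, was 2.31, 2.27 and 2.20 in xylem tissue and between 1.08 (root replicate 3) and 1.41 (phloem replicate 1) in the 12 other tissue libraries. Its mean was 2.26 ± 0.057 in xylem tissue, 1.25 ± 0.098 in leaf, 1.27 ± 0.15 in phloem, 1.11 ± 0.046 in root and 1.32 ± 0.073 in shoot tip. The ratio in xylem tissue did not overlap any other tissue; it was not tested, since it is a score over chosen loci.

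**Figure D4:**
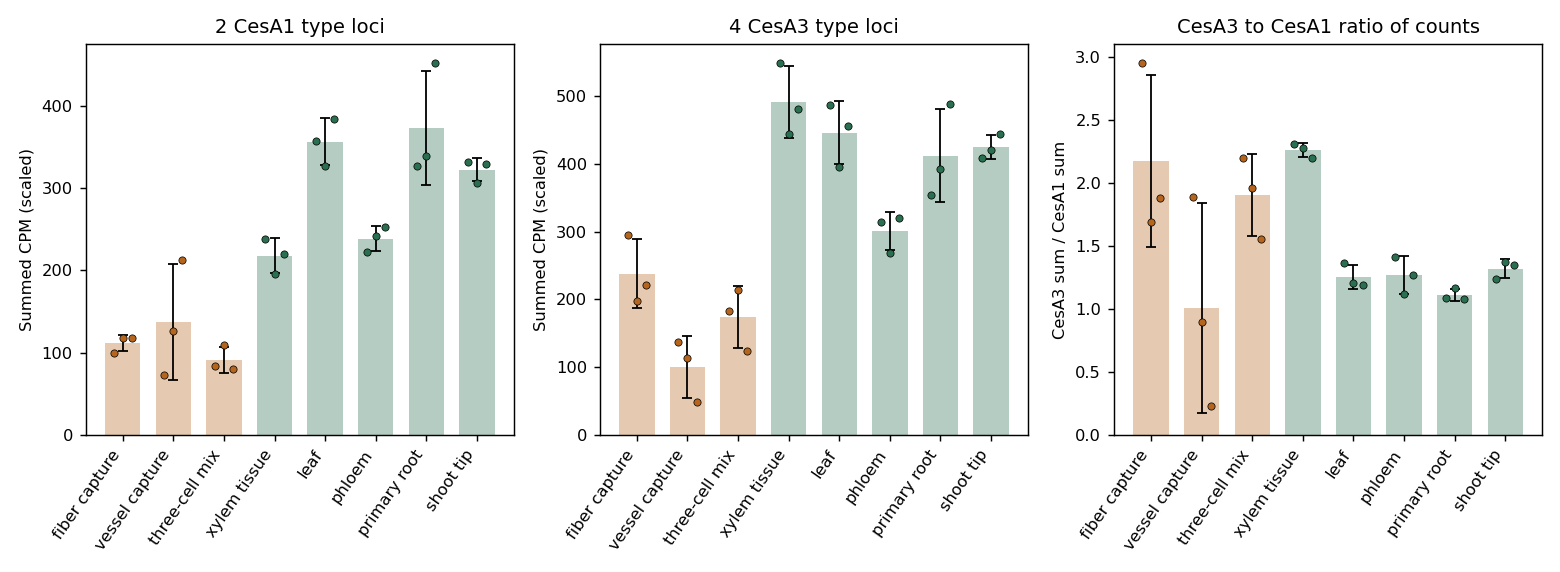
Summed CPM of the CesA1 type loci (left), of the CesA3 type loci (middle) and the ratio of their counts (right) in 8 groups, with points for libraries, bars for means and error bars for SD (n = 3). The 3 xylem tissue libraries sit at ratios of 2.20 to 2.31, above all other tissue libraries, while the vessel capture spreads from 0.229 to 1.89.

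Among the captures no locus was called. The fit of the 3 captures together had a biological coefficient of variation of 111.3%, against 27.5% in the tissue fit. That spread was not alike in the 3 captures. In the fits of each capture with xylem tissue it was 73.4% for fiber, 104.2% for vessel and 36.9% for the mix. The comparisons with the mix below used the fit of the 3 captures together. For fiber against vessel 0 loci were called by edgeR's quasi-likelihood test (6.05% of all loci tested), with 2 at an unadjusted p below 0.05, 2 called by DESeq2 and 0 by limma voom. Of all 22828 loci tested there, 5453 had an unadjusted p below 0.05 in edgeR's test and 4275 were called by DESeq2. For fiber against the mix 0 were called (0.346% of all loci), with 0 at an unadjusted p below 0.05 and 0 by DESeq2 or limma voom. For vessel against the mix 0 were called (0.0131% of all loci), with 2 at an unadjusted p below 0.05, 1 called by DESeq2 and 0 by limma voom. Counts over all loci at an unadjusted p or by DESeq2 are not given here for the comparisons with the mix. The median log2 fold of the 6 loci was 0.97 for fiber against vessel (all loci, 0), 0.31 for fiber against the mix (all loci, -0.14) and -0.69 for vessel against the mix (all loci, -0.11). With leaf against root, the tissue pair without a call, 3 loci had an unadjusted p below 0.05 in edgeR's quasi-likelihood test. So did 21590 of all 31308 loci tested there. DESeq2 called 0 of the 6 loci and 15877 of all loci. With unscaled library totals 3 of the 6 were called, all lower in leaf, and 19680 of all loci, whose median log2 fold was then -0.947.

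Of the CesA1 type loci, Potri.018G029400 was present in every capture, with 79.9, 45.6 and 88.9 CPM in fiber, 57.3, 126 and 175 CPM in vessel, and 50.1, 79.6 and 41.3 CPM in the mix. The 3 captures overlapped each other and the xylem tissue libraries. Potri.006G251900 had 20.1, 71.6 and 28.8 CPM in fiber, 15.6, 0.101 and 38.0 CPM in vessel, and 33.3, 29.5 and 38.6 CPM in the mix. The low value in vessel replicate 2 rested on 1 count, against 206 and 443 counts in vessel replicates 1 and 3. All captures of this locus overlapped each other and lay below every xylem tissue library.

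Of the CesA3 type loci, Potri.009G060800 had 140.0, 72.0 and 52.3 CPM in fiber, 84.2, 57.7 and 22.4 CPM in vessel, and 83.6, 86.0 and 51.0 CPM in the mix, with overlap throughout. Potri.001G266400 had 48.4, 22.1 and 44.7 CPM in fiber, 1.66, 0.507 and 5.49 CPM in vessel, and 17.8, 29.0 and 17.2 CPM in the mix. Its vessel libraries, with 22, 5 and 64 counts, lay below all fiber and mix libraries. Its mean was 38.4 ± 14.2 CPM in fiber libraries and 2.56 ± 2.61 CPM in vessel libraries (SD, n = 3 each), a log2 fold of 3.94 ± 1.06 (SE) with an adjusted p of 0.0525 in edgeR's quasi-likelihood test, just outside the call. DESeq2, the fit of all 24 libraries, and edgeR without vessel replicate 2 or 3 called it, and over its alternatives the adjusted p ran between 1.61e-05 and 0.24.

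Potri.006G052600 was the one locus whose 3 captures were fully separated, in the order fiber, mix and vessel, although fiber and mix overlapped with unscaled library totals. Of all loci tested among captures, 4.89% were separated in this way, in any order, and with library totals 4.74% of all loci and 0 of the 6. It had 107, 100.2 and 124 CPM in fiber, 31.0, 47.1 and 8.50 CPM in vessel, and 81.2, 96.5 and 51.7 CPM in the mix. Its mean was 110.2 ± 12.3 CPM in fiber libraries and 28.9 ± 19.4 CPM in vessel libraries (SD, n = 3 each), a log2 fold of 2.0 ± 0.58 (SE, adjusted p 0.0678, edgeR), which was called by DESeq2, in the fit of all 24 libraries, and without vessel replicate 2. Potri.016G054900 went the other way, with 0.129, 3.28 and 0 CPM in fiber, 20.5, 7.91 and 12.4 CPM in vessel, and 0.542, 2.47 and 4.16 CPM in the mix. The fiber values rested on 1, 32 and 0 counts, and 0 counts in fiber replicate 3 allow up to 0.288 CPM (3 counts, counting error only). Its vessel libraries lay above all fiber and mix libraries, but the log2 fold of fiber against vessel, -3.51 ± 1.99 (SE), had an adjusted p of 0.329 in edgeR's quasi-likelihood test, between 0.00509 and 0.615 over its alternatives. Fewer loci were detected in the fiber and vessel captures (17956 to 22355) than in the mix (26596 to 28893), and the part of that difference in these values was not tested.

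Against xylem tissue, the tissue that holds fiber and vessel cells, the 6 loci were called lower in 2 cases in the fiber capture (22.4% of all loci tested were called), 3 in the vessel capture (17.4%) and 5 in the mix (38.2%), and none was called higher. The median log2 fold was -1.19 for fiber (all loci, -0.22), -2.20 for vessel (all loci, -0.21) and -1.74 for the mix (all loci, -0.03). For 5 of the 6 loci every capture library lay below every xylem tissue library in each of the 3 comparisons, and Potri.018G029400 was the exception. Of all loci tested, 33.6% had every fiber library below every xylem tissue library, 31.8% every vessel library and 33.4% every mix library, and with library totals, where 5 of the 6 loci were again below in each comparison, these shares were 34.8%, 32.2% and 32%. The log2 folds of Potri.018G029400, -0.16 ± 0.32 for fiber, 0.58 ± 0.44 for vessel and -0.48 ± 0.30 for the mix (SE), had adjusted p of 0.788, 0.505 and 0.218 in edgeR's quasi-likelihood test. These comparisons set amplified against unamplified RNA, and the secondary wall list also had 1, 5 and 5 of its 5 loci lower in the fiber capture, the vessel capture and the mix, with none higher.

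In the mix the log2 fold against xylem tissue was -2.02 ± 0.19 (SE) for Potri.006G251900 (adjusted p 0.000299, edgeR's quasi-likelihood test), -1.46 ± 0.26 for Potri.009G060800 (adjusted p 0.00344) and -2.03 ± 0.26 for Potri.001G266400 (adjusted p 0.000882). It was -1.11 ± 0.27 for Potri.006G052600 (adjusted p 0.0118, edgeR) and -3.77 ± 0.54 for Potri.016G054900 (adjusted p 0.00148). The means were 33.8 ± 4.55 CPM in the mix and 137 ± 16.3 CPM in xylem tissue for Potri.006G251900, and 2.39 ± 1.81 CPM in the mix and 33.7 ± 2.64 CPM in xylem tissue for Potri.016G054900 (SD, n = 3 each). The calls of Potri.009G060800, Potri.001G266400 and Potri.016G054900 held in all 13 alternatives. That of Potri.006G251900 ended in the fit of all 24 libraries (adjusted p 0.0699), and that of Potri.006G052600 ended without mix replicate 3, where its fold was -0.88.

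In the fiber capture Potri.006G251900 was lower than in xylem tissue by a log2 fold of -1.75 ± 0.49 (SE, adjusted p 0.0434, edgeR's quasi-likelihood test) and Potri.001G266400 by -1.18 ± 0.33 (adjusted p 0.0425). In the vessel capture Potri.009G060800 was lower by -1.88 ± 0.50 (adjusted p 0.0445, edgeR), Potri.001G266400 by -5.07 ± 0.93 (adjusted p 0.0132) and Potri.006G052600 by -2.52 ± 0.61 (adjusted p 0.0328). All 5 of these calls ended when any 1 xylem tissue library was left out. Both fiber calls also ended in the fit of all 24 libraries, that of Potri.006G251900 without fiber replicate 1 or 3, and that of Potri.001G266400 without fiber replicate 2 or with a replicate block. The vessel calls of Potri.009G060800 and Potri.006G052600 ended under limma voom with sample weights, and without vessel replicate 2 and vessel replicate 1 in that order. The other folds were -1.20 ± 0.39 for Potri.009G060800 in fiber (adjusted p 0.0703, edgeR), -0.58 ± 0.20 for Potri.006G052600 in fiber (adjusted p 0.0797), -4.84 ± 1.47 for Potri.016G054900 in fiber (adjusted p 0.0584), -2.91 ± 1.39 for Potri.006G251900 in vessel (adjusted p 0.248) and -1.29 ± 0.62 for Potri.016G054900 in vessel (adjusted p 0.257). That of Potri.009G060800 in fiber was called with library totals, by DESeq2, in the fit of all 24 libraries and without fiber replicate 1. In the fit of all 24 libraries, and without vessel replicate 2, the library with 1 count, the fold of Potri.006G251900 in vessel was called. That of Potri.016G054900 in fiber was called by DESeq2, limma voom, the fit of all 24 libraries and the replicate block, and without fiber replicate 2 or 3.

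Shares within a library compare captures with tissue free of scaling, though not of amplification. Potri.006G052600 gave 47.6% ± 10.4 of the CesA3 type sum in fiber libraries, 27.2% ± 12.8 in vessel libraries and 43.7% ± 1.79 in mix libraries (SD, n = 3 each), where xylem tissue had 33.8% ± 0.777. Potri.016G054900 gave 0.568% ± 0.945 in fiber libraries, 15.8% ± 9.21 in vessel libraries and 1.60% ± 1.58 in mix libraries, where xylem tissue had 6.88% ± 0.473. Every fiber and mix library was below every xylem tissue library in the share of Potri.016G054900, and every vessel library but replicate 2 (6.98%) was above all of them. Potri.018G029400 gave 64.8% ± 22.5 of the CesA1 type sum in fiber libraries, 86.9% ± 11.4 in vessel libraries and 61.6% ± 10.7 in mix libraries, where xylem tissue had 36.8% ± 6.25. The ratio of CesA3 type to CesA1 type counts was 2.17 ± 0.683 for fiber, 1.0 ± 0.834 for vessel and 1.90 ± 0.325 for the mix, where xylem tissue had 2.26 ± 0.057. All 3 vessel libraries (1.89, 0.897 and 0.229) and all 3 mix libraries (2.195, 1.96 and 1.55) were below the xylem tissue libraries, the highest mix library only just (the lowest xylem tissue library had 2.196), and fiber (2.95, 1.69 and 1.88) overlapped them.

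The folds of the 6 loci for xylem tissue against the other tissues lay between -1.81 and 3.20 on the log2 scale, and those of the secondary wall list were larger. All 5 secondary wall loci were called higher in xylem tissue than in each of the 4 other tissues, with median log2 folds of 6.31 against leaf (49.6% of all loci tested were called), 5.10 against phloem (36%), 5.88 against root (48.6%) and 6.14 against shoot tip (45.8%). Of these, Potri.004G059600 averaged 2126 ± 223 CPM in xylem tissue and 30.4 ± 9.18 CPM in shoot tip, and Potri.002G257900 averaged 3018 ± 646 CPM in xylem tissue and 34.4 ± 8.90 CPM in shoot tip (SD, n = 3 each). The ratio of the secondary wall sum to the sum of the 6 loci was 24.9 ± 2.34 for fiber, 5.75 ± 1.76 for vessel, 9.68 ± 2.66 for the mix and 12.98 ± 2.98 for xylem tissue. It was 0.155 ± 0.025 in leaf, 0.505 ± 0.099 in phloem, 0.190 ± 0.016 in root and 0.169 ± 0.045 in shoot tip. Of the 5 secondary wall loci, 4 were called higher in fiber than in vessel (6.05% of all loci tested were called), where none of the 6 primary wall loci was, and the difference between the lists was not tested.

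The 6 loci listed as CesA6 type, the other partner of the primary wall complex, had 1 called higher and 2 lower in xylem tissue than in leaf. There 49.6% of all loci tested were called, and the same share is given in parentheses below. Xylem tissue had 1 higher and 0 lower than phloem (36%), 1 higher and 3 lower than root (48.6%), and 0 higher and 1 lower than shoot tip (45.8%). Phloem had 4 of the CesA6 type loci lower than root (51.4%) and 2 lower than shoot tip (31.1%), with none higher. Leaf had 3 higher than phloem (45.2%), with none lower. Root had 2 higher and 1 lower than shoot tip (52%), leaf had 2 lower than root (51.3%), and the mix had 3 lower than xylem tissue (38.2%) and none higher. In the other 6 comparisons edgeR's quasi-likelihood test called 0 of the 6 CesA6 type loci. These were leaf against shoot tip (29.8%), fiber against vessel (6.05%), fiber (0.346%) and vessel (0.0131%) against the mix, and fiber (22.4%) and vessel (17.4%) against xylem tissue. Of these 36 folds 8 had an unadjusted p below 0.05 in that test and 3 were called by DESeq2. For leaf against shoot tip 3 of the 6 had such a p, as did 15459 of all 31308 loci tested. For fiber against vessel 2 of the 6 did, as did 5453 of all 22828. Limma voom, run in 5 of these 6 comparisons, called 1. Of these loci Potri.007G076500 averaged 123 ± 14.2 CPM in xylem tissue, 287.5 ± 32.4 CPM in leaf, 94.9 ± 8.49 CPM in phloem, 188 ± 29.6 CPM in root and 200.1 ± 20.5 CPM in shoot tip (SD, n = 3 each). Potri.005G194200 averaged 205 ± 72.1 CPM in xylem tissue, 199.9 ± 31.5 CPM in leaf, 92.0 ± 21.7 CPM in phloem, 257 ± 60.6 CPM in root and 155 ± 32.3 CPM in shoot tip. With unscaled library totals Potri.007G076500 was highest in root (253 CPM), with 210 CPM in shoot tip and 198 CPM in leaf. The ratio of the CesA6 type sum to the sum of the 6 CesA1 and CesA3 type loci was 0.911 ± 0.017 in xylem tissue, 0.920 ± 0.070 in leaf, 0.791 ± 0.062 in phloem, 1.14 ± 0.057 in root and 0.861 ± 0.018 in shoot tip.

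Across the 15 tissue libraries, Pearson's r of log2(CPM + 1) between members, a description of values that share libraries and scaling, was highest for Potri.009G060800 with Potri.001G266400 (0.81). It was 0.24 between the CesA1 type loci and -0.54 between Potri.001G266400 and Potri.006G052600, which are both of CesA3 type. With the 6 CesA6 type loci r ran from -0.40 to 0.89 for Potri.018G029400 and from -0.74 to 0.89 for Potri.006G052600, for which 5 of the 6 were below 0. In the 9 captures Potri.016G054900 had an r of -0.78 with Potri.006G052600 and -0.84 with Potri.001G266400, and in the tissues 0.29 and -0.575. Outside the 17 listed CesA loci, and among 16460 loci with a mean of at least 10 CPM, the CesA1 type sum was matched most closely over the 15 tissue libraries by Potri.002G172100 (r 0.97) and Potri.015G034000 (r 0.97), whose r over the 9 captures was -0.44 and -0.24. The CesA3 type sum was matched most closely by Potri.002G231900 (r 0.94) and Potri.004G124500 (r 0.93), whose r over the captures was -0.54 and -0.33. With unscaled library totals the r of these loci was 0.91, 0.86, 0.72 and 0.92. The identifiers are not paired with names in the sources used here.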

How the data were processed

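RNA sequencing of 24 Populus trichocarpa libraries, 8 groups of 3 named in the sample titles, was deposited by the authors as 1 table of raw counts per locus, whole numbers with no normalization. TopHat, of unstated version, is the tool named per the submitters' processing notes. The sources used here give no genome build, annotation, counter or strand setting. Each column matched 1 library, 0 columns were left over, and 0 lines named something other than a gene. None of the identifiers matched the reference table (0 of 41335), so names, lengths, positions, sequences and lists by product name were not used here. CPM are counts per 1000000 counts of a library. The members and both other lists were chosen with earlier results of these data known.

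The tests used edgeR 4.0.16 in R 4.3.3 (filterByExpr, TMM, quasi-likelihood test, no replicate block), the alternatives also limma 3.58.1 and DESeq2 1.42.0, and the plots matplotlib 3.10.9 in Python 3.11.15. The 15 tissue libraries were fitted together, as were the 9 captures and the 6 libraries of each capture and xylem tissue, and the method was tested on simulated data. A standard error is the size of the log2 fold over the square root of the F statistic. Levels had been planned as CPM of library totals with TMM scaling as the alternative; this was turned round after the data were seen, because unscaled totals moved the median log2 fold of all loci by up to -0.947 (leaf against root). The rule for named genes was all 6 members, the 2 loci of highest mean CPM in each other list, and the 2 loci with the highest r to each sum. Replicate libraries differed by more than sampling noise, with a chi-square per degree of freedom of 5.5 to 225.2, and none was merged. Whether same-numbered libraries form pairs was checked by the correlation of their deviations from their own group's mean, and it was over 0.1 for every number in 3 of 16 group pairs, namely xylem tissue with shoot tip (0.38, 0.24 and 0.45), leaf (0.14, 0.25 and 0.39) and phloem (0.19, 0.44 and 0.23), a pairing seen in the data that no label states. Limits on counts of 0 and other counting limits cover counting error only. Alternatives were other scalings, no filter, a replicate block, DESeq2, limma voom (only for comparisons that hold a capture), other sets of libraries, and leaving out each library.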

Additional observations from a re-analysis of the deposited data

How the results depend on the processing

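Of 96 member folds 28 were called, none of the 28 changed sign under any alternative run, and 11 of them were called under every one. Of the 68 not called, 19 were called under some alternative and 18 changed sign. RLE scaling, no filter on low counts and only the 6 libraries compared kept every count of called loci within 1.5 times. The replicate block left all 16 counts of called loci as they were, for xylem tissue at 2 against shoot tip, 2 against leaf and 1 against phloem, the pairs of groups whose numbers went together, and no call in those changed; for fiber against xylem tissue, not so paired, 1 call was lost and 1 gained. With unscaled library totals the number of loci called was 3 for leaf against root (19680 of all 31308 loci tested), 4 for phloem against root (16388), 2 for phloem against shoot tip (9582) and 1 for xylem tissue against leaf (17588). With DESeq2 it was 2 for fiber against vessel (4275 of all 22828 loci tested), 4 for fiber against xylem tissue and 1 for vessel against the mix. In the fit of all 24 libraries it was 3 for fiber against vessel and 4 for vessel against the mix. Against shoot tip that fit called 1 locus for leaf (2482 of all 31819 loci tested), 0 for phloem (3567), 1 for root (8342) and 1 for xylem tissue (6964). The main fit had called 9344, 9750, 16275 and 14343 of all 31308 loci in these 4 pairs, so fewer of all loci were called too. With limma voom the number was 1 for vessel against xylem tissue. Counts over all loci are not given here for limma voom, for the captures in the fit of all 24 libraries, or for the last 2 comparisons with DESeq2. The cause of these changes was not tested. Leaving out 1 library gave 1 to 2 called loci for xylem tissue against root (1 without root replicate 3), 1 to 2 for phloem against shoot tip (2 without phloem replicate 3), 0 to 1 for leaf against root (1 without leaf replicate 3 or root replicate 1) and 1 to 2 for phloem against root (2 without phloem replicate 3, root replicate 1 or root replicate 2). It gave 0 to 2 for fiber against vessel (2 without vessel replicate 2, 1 without vessel replicate 3), 0 to 2 for fiber against xylem tissue and 0 to 3 for vessel against xylem tissue, both 0 without any 1 of the xylem tissue libraries.

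Folds that changed sign were not called. For Potri.006G251900, with unscaled library totals the log2 fold was 0.44 for xylem tissue against leaf, 0.0422 for xylem tissue against phloem, -0.435 for leaf against shoot tip, -0.0373 for phloem against shoot tip and -0.398 for leaf against phloem. For xylem tissue against phloem it was 0.0111 with no filter, 0.0213 with all 24 libraries and 0.0149 with only the 6 libraries. Leaving out 1 library gave -0.0365 to 0.213 for xylem tissue against shoot tip, -0.238 to 0.0127 against leaf, -0.118 to 0.107 against phloem, -0.0473 to 0.207 for phloem against shoot tip and -0.458 to 0.625 for fiber against the mix. For Potri.018G029400, root against shoot tip was 0.0321 with RLE scaling, 0.337 with library totals, 0.0326 with DESeq2, 0.00961 with no filter, 0.00752 with all 24 libraries and -0.275 to 0.0996 without 1 library. Its leaf against shoot tip was -0.504 with library totals, -0.012 with only the 6 libraries and -0.0353 to 0.196 without 1 library, its leaf against root was -0.841 with library totals and -0.0628 to 0.283 without 1 library, and its fiber against xylem tissue was -0.34 to 0.0868 without 1 library. For Potri.001G266400, xylem tissue against leaf was 0.561 with library totals, 0.0351 with no filter, 0.0553 with all 24 libraries, 0.0455 with only the 6 libraries and -0.0605 to 0.11 without 1 library. For Potri.009G060800, library totals gave 0.0324 for xylem tissue against leaf and -0.62 for leaf against root, and leaving out 1 library gave -0.305 to 0.00377 for xylem tissue against root and -0.203 to 0.546 for fiber against the mix. For Potri.006G052600, leaf against root was -0.264 with library totals, and for Potri.016G054900, phloem against root was -0.307 to 0.142 without 1 library. Counts were low for Potri.016G054900 in fiber and the mix and Potri.001G266400 in vessel, where a library held from 0 to 81 counts. They were also low for Potri.006G251900 in vessel replicate 2 (0.101 CPM). The part of depth in these values was not tested.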
